A study of Mus musculus with 12 samples.

Results

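TRAV6 is a family of related gene segments at the mouse Tcra locus, each of which can supply the variable part of a T cell receptor (TCR) α chain. In a developing thymocyte 1 TRAV segment is joined to 1 TRAJ segment, bases are trimmed from and added to both ends at the joint, and the joint encodes CDR3α, the loop that lies over the peptide when the TCR binds peptide and MHC. The TRAV segment itself encodes CDR1α and CDR2α, so clonotypes of 1 TRAV segment share those loops, while their TRAJ segment and joint differ. Segments of 1 family can differ in them. In mice of the B6 background part of the locus is present in several copies, and the letters D and N in a segment name mark those copies. The TRAV6 clonotypes were taken as every row whose V segment name begins with TRAV6-, TRAV6D- or TRAV6N- and whose CDR3 is in frame and without a stop codon, a clonotype being 1 V segment name, 1 CDR3 amino acid sequence and 1 TRAJ segment. This gave 2066 of the 20615 in-frame clonotypes (10.0%), which held 18354 of the 190549 in-frame UMIs (unique molecular identifiers, each 1 captured Tcra mRNA; 9.63%) under 14 of the 104 V segment names.

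Regulatory T cells (Treg) are CD4+ T cells that express the transcription factor Foxp3, and IL-2 and IL-15 are cytokines that take part in their development in the thymus. Newly developed CD4+CD8-Thy1.1+GFP+ thymic Treg were sorted, 100000 per mouse, from 3-week-old B6 mice that were wild type (wt), Il2° (IL-2-deficient) or Il15° (IL-15-deficient), with 4 mice and 4 libraries per genotype. Mice of every genotype carried the Rag2-Gfp reporter, which marks recently formed T cells, the Foxp3-Thy1a reporter, which puts Thy1.1 on cells that express Foxp3, the Kaa Tcrb transgene, and 1 functional Tcra allele beside 1 null allele (Tcra+/null). The TCR β chain was therefore fixed in all cells and only the α chain varied, so that the repertoire described is that of α chains able to develop with this single β chain.

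The tables hold the sequence of each joint, and a few are shown because the results turn on them. CDR3 begins with the codon of a conserved cysteine near the end of the V segment. All 15 TRAV6 genes of the GENCODE M21 annotation (build GRCm38, chr14, plus strand) leave 14 bases from that codon to the end of their coding sequence. In the 82 other TRAV genes in which that codon was located it was 10 to 19 bases (median 13), and 56 of them were shorter. These 82 are not all other TRAV genes, and they include none of TRAV1, TRAV11, TRAV19 or TRAV21. These germline ends fall into a few forms, printed 5′ to 3′ for the segments that matter most.
TRAV6D-7, TRAV6D-6, TRAV6-6, TRAV6N-5, TRAV6N-7: tgtgctctgggtga
TRAV6-5, TRAV6-7/DV9: tgtgctctgagtga
TRAV6-3: tgtgctatgagaga
TRAV6-4, TRAV6D-4: tgtgctctggttga
TRAV6-1, TRAV6-2, TRAV6D-5: tgtgttctgggtga
TRAV6N-6: tgcgctctgagtga

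The joints of 5 abundant clonotypes follow, each as its commonest nucleotide sequence and, for the clonotype with TRAJ37, also the next commonest. Lower case bases match the germline end of a TRAV6 segment or of the TRAJ segment, and capitals mark bases that match neither.
TRAV6D-5 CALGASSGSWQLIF TRAJ22: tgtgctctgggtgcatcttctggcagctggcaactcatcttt
TRAV6-5 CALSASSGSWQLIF TRAJ22: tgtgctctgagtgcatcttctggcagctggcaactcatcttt
TRAV6D-6 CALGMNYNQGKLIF TRAJ23: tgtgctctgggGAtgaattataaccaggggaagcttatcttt
TRAV6D-7 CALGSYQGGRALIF TRAJ15: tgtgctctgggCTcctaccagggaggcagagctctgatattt
TRAV6D-7 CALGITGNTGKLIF TRAJ37: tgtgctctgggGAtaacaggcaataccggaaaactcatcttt
TRAV6D-7 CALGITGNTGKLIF TRAJ37, next commonest: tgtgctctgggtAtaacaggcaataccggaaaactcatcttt
The pair of TRAJ22 joints needs 0 bases beyond the germline: that form carried 45.04% of the UMIs of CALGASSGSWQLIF and 78.8% of those of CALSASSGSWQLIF. These 2 clonotypes differ at residue 4, glycine or serine, which the V segment encodes.

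The libraries held 7625 to 25980 UMIs, of which 7293 to 24811 were in frame and 782 to 2173 were TRAV6, so that a share of 0 allows up to 0.0121% to 0.0411% of a library (3 UMIs), and the 95% Wilson half-width of a TRAV6 family share was 0.352 to 0.710 percentage points. Intervals and floors cover counting error only. A higher UMI share may come from more cells or from more Tcra mRNA per cell, and these cannot be told apart. The α chains of invariant NKT cells (TRAV11 with TRAJ18) and of MAIT cells (TRAV1 with TRAJ33) stayed at or below 0.115% and 0.247% of in-frame UMIs in every library, so few UMIs came from these lineages. The tables hold no transcript but Tcra, so the Treg label itself could not be checked.

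TRAV6 ranked number 4 of 20 TRAV families by mean share of in-frame UMIs. In wt mice the TRAV6 share was 8.76%, 8.80%, 9.29% and 9.49%. In Il2° mice it was 9.91%, 9.02%, 10.6% and 10.7%, and in Il15° mice 10.5%, 8.80%, 9.74% and 11.3%. The genotypes overlapped in each comparison, which 21.1%, 5.56% and 23.5% of the TRAV families tested did not do for Il2° against wt, Il15° against wt and Il15° against Il2°. Means were 9.08 ± 0.361% in wt, 10.1 ± 0.781% in Il2° and 10.1 ± 1.05% in Il15° (SD, n = 4). The exact Mann-Whitney p values were 0.114 for Il2° against wt, 0.2 for Il15° against wt and 0.886 for Il15° against Il2° (2-sided, 4 libraries against 4, for which the smallest possible p is 0.0286). Fitted among all TRAV families with edgeR, the log2 fold change was −0.08 (95% interval −0.26 to 0.10, adjusted p = 0.581) for Il2° against wt, 0.14 (−0.09 to 0.37, adjusted p = 0.716) for Il15° against wt and 0.18 (−0.13 to 0.50, adjusted p = 0.485) for Il15° against Il2°. Of the families tested, 5.26%, 0% and 11.8% passed in these comparisons (in the last 5.88% higher and 5.88% lower in Il15°), and 21.1%, 5.56% and 29.4% had an unadjusted p below 0.05, TRAV6 in none of the 3. With library totals in place of TMM scaling the Il2° against wt value was 0.15 (adjusted p = 0.171), and the median over all families then lay at 0.23 against 0.01. Whether the Il15° against Il2° value passed depended on 1 library: without Il15° replicate 2 it was 0.38 (edgeR, adjusted p = 0.0209). With single libraries left out it stayed positive, at 0.10 to 0.38.

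**Figure D1:**
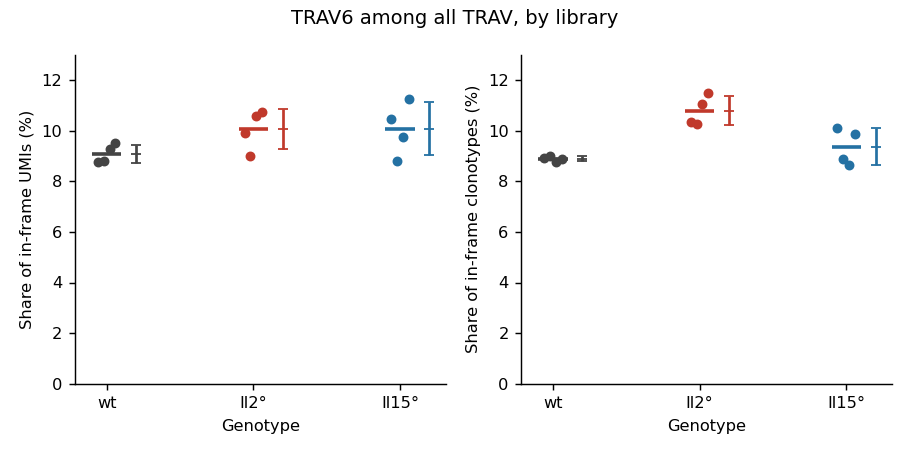
TRAV6 share of in-frame UMIs (%, left) and of in-frame clonotypes counted once (%, right) in each of the 12 libraries by genotype (wt, Il2°, Il15°); points are mice, horizontal lines are means and error bars are SD (n = 4). By UMIs the wt libraries sit between 8.76% and 9.49% and overlap the others, and by clonotypes the Il2° libraries, at 10.3% to 11.5%, lie above the rest.

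When each clonotype was counted once, the share of clonotypes that were TRAV6 was 8.93%, 8.98%, 8.76% and 8.87% in wt, 10.3%, 10.3%, 11.1% and 11.5% in Il2°, and 10.1%, 8.87%, 8.63% and 9.86% in Il15°. Every Il2° library lay above every library of the other genotypes. The mean was 10.8 ± 0.581% in Il2° against 8.88 ± 0.0959% in wt and 9.37 ± 0.729% in Il15° (SD, n = 4), each with an exact Mann-Whitney p of 0.0286 that became 0.117 after Benjamini-Hochberg adjustment over the 90 exact genotype tests made here. Of these 90 tests, 22 reached 0.0286 and none passed after adjustment, the smallest adjusted p being 0.117. With all libraries downsampled to the smallest, the exact p was 0.0286 for Il2° against wt and 0.114 for Il15° against Il2°. TRAV6 clonotypes held fewer UMIs each in Il2° mice, 3.28 ± 0.858 against 4.94 ± 0.672 in wt and 5.35 ± 0.610 in Il15°. A larger part of them was seen as a single UMI, 37.98% in Il2° against 26.0% in wt and 32.8% in Il15°, and the other TRAV clonotypes moved alike (44.1%, 30.0% and 37.7%).

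TRAV6D-6 held the largest part of the family (23.4% of TRAV6 UMIs), followed by TRAV6-5 (18.2%), TRAV6D-5 (14.95%), TRAV6D-7 (12.4%) and TRAV6-3 (9.20%). Each of the 14 names matched a gene of the annotation. TRAV6D-6 lies at chr14:52821922-52822359, TRAV6D-5 at chr14:52795165-52795633, TRAV6D-7 at chr14:53007612-53008098 and TRAV6-5 at chr14:53491115-53491622, all V genes of the plus strand. Copies of the family can be almost identical: over the last 270 bases of the coding sequence TRAV6D-7 and TRAV6N-7 had 0 mismatches, and TRAV6-5 and TRAV6N-5 had 1. Other members lay further apart: TRAV6-5 and TRAV6D-7 had 46 mismatches, and TRAV6D-6 and TRAV6D-7 had 89 (67.0% identity). Names of near-identical copies are therefore uncertain. Of 5127 combinations of CDR3 nucleotide sequence and TRAJ in a library, 24 (0.468%, with 1.38% of the UMIs) stood under more than 1 TRAV6 name. Of the UMIs named TRAV6D-5, 75.3% began with tgtgctctggg, whereas the annotated gene of that name begins with tgtgttctg, as did 12.2% of them. Of those named TRAV6-7/DV9, 64.4% began with tgtgctctggg, and 19.5% began as the annotated gene does over the same length. For the rare names TRAV6N-5 and TRAV6N-7 the part that began as annotated was 21.2% and 0%.

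TRAV6-5 held 1.25%, 1.43%, 1.82% and 1.84% of in-frame UMIs in wt, 1.94%, 1.49%, 1.39% and 1.62% in Il2°, and 2.25%, 1.29%, 2.81% and 2.47% in Il15°. All Il15° values but that of replicate 2 exceeded the other genotypes, and replicate 2 lay among the lowest. The edgeR log2 fold change of TRAV6-5 was 0.62 ± 0.25 (SE) for Il15° against Il2° (adjusted p = 0.195), 0.51 for Il15° against wt (adjusted p = 0.519) and −0.15 for Il2° against wt (adjusted p = 0.808). Without Il15° replicate 2 the first of these was 0.79 (adjusted p = 0.0351), and without Il2° replicate 1 it was 0.78 (adjusted p = 0.0492).

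TRAV6D-7 held 1.18%, 1.22%, 0.668% and 1.27% in wt, 1.14%, 1.02%, 1.74% and 1.48% in Il2°, and 1.38%, 0.803%, 1.30% and 1.27% in Il15°. These ranges overlapped throughout, and the log2 fold changes of TRAV6D-7 were 0.12 (95% interval −0.34 to 0.58) for Il2° against wt, 0.15 (−0.32 to 0.63) for Il15° against wt and −0.00 (−0.47 to 0.47) for Il15° against Il2°.

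Of the 12 TRAV6 segments with enough UMIs to test, 0 passed the edgeR test at an adjusted p below 0.05 in any comparison. Over all segments 1.27% passed for Il2° against wt and 0% in each of the others, and DESeq2 also passed 0 TRAV6 segments. At an unadjusted p below 0.05 there were 0, 1 and 1 TRAV6 segments, against 15.2%, 9.21% and 13.3% of all segments. The TRAV6 fold changes ran from −0.46 (TRAV6D-5) to 0.86 (TRAV6-7/DV9) for Il2° against wt on the log2 scale. In that comparison the shares did not overlap for 2 of the 12, TRAV6-7/DV9 and TRAV6N-6, both named after their values were seen, against 6.33% of all segments, and for 0 in the other comparisons, against 3.95% and 8%. TRAV6-7/DV9, most of whose UMIs began as another segment's germline end, ranged from 0.0393% to 0.0967% in wt and from 0.119% to 0.192% in Il2°. TRAV6N-6 ranged from 0.454% to 0.580% and from 0.590% to 0.783%. TRAV6-2, with 0.180 ± 0.0832% in wt, 0.341 ± 0.0933% in Il2° and 0.264 ± 0.138% in Il15°, did overlap. The remaining segments of at least 0.1% overlapped in every comparison. In the order wt, Il2° and Il15°, TRAV6D-6 had means of 2.21%, 2.43% and 2.15%, TRAV6-3 of 0.814%, 0.897% and 0.921%, and TRAV6-4 of 0.572%, 0.702% and 0.582%. For TRAV6-1 these means were 0.157%, 0.239% and 0.167%, for TRAV6D-4 0.152%, 0.219% and 0.196%, and for TRAV6-6 0.0870%, 0.115% and 0.107%. TRAV6-7/DV9, TRAV6N-5 and TRAV6N-7 averaged below 0.1%.

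**Figure D2:**
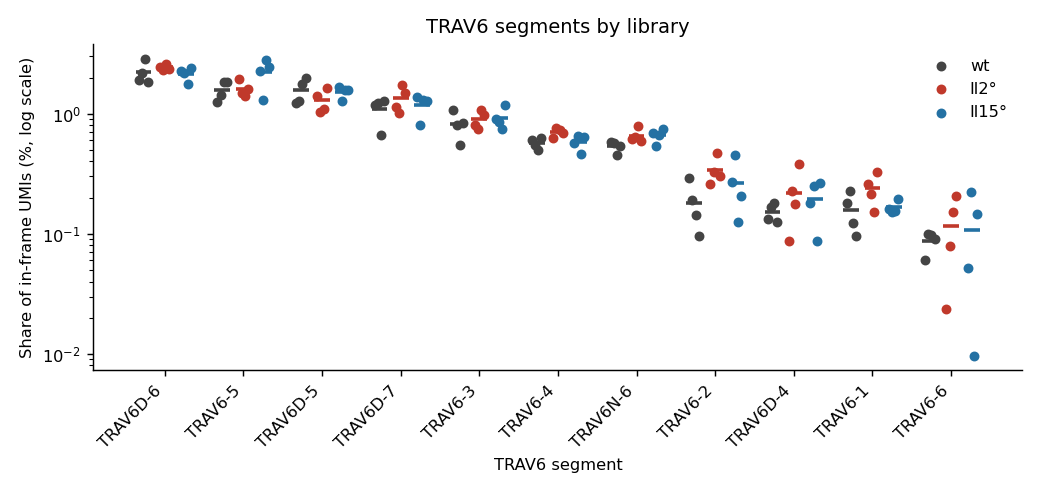
Share of in-frame UMIs (%, log scale) of the TRAV6 segments with a mean of at least 0.1%, by genotype; points are libraries, 4 per genotype, and horizontal lines are means. TRAV6D-6 has the highest mean in wt and Il2°, and in TRAV6-5 the Il15° libraries spread from 1.29% to 2.81%.

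The segments paired with different TRAJ segments. TRAJ22 was joined to 51.2% of TRAV6D-5 UMIs and to 36.3% of TRAV6-5 UMIs, but to 1.01% of those of TRAV6D-7 and 1.52% of those of TRAV6D-6, and of all TRAV6-TRAJ22 UMIs 47.9% were TRAV6D-5 and 41.4% TRAV6-5. TRAV6D-7 was joined most often to TRAJ15 (33.5%), TRAV6-3 to TRAJ23 (36.0%), TRAV6-4 to TRAJ21 (23.5%) and TRAJ15 (20.7%), and TRAV6-2 to TRAJ37 (23.2%). TRAV6D-6 was divided between TRAJ23 (19.1%) and TRAJ34 (18.2%), and TRAV6N-6 between TRAJ9 (16.6%) and TRAJ12 (14.8%). The first 4 residues also set the family apart to different degrees. CALG opened 40.7% of TRAV6 UMIs against 0.296% of those of other TRAV, CALS 18.8% against 4.72%, and CAMR 7.42% against 3.91%, the TRAV6 part of which was 99.9% TRAV6-3.

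Compared within each library with all other TRAV, TRAV6 used TRAJ22, TRAJ23, TRAJ15, TRAJ34 and TRAJ40 more in 12 of 12 libraries and TRAJ42, TRAJ32, TRAJ31, TRAJ27, TRAJ17, TRAJ4 and TRAJ2 less in 12 of 12, out of 43 TRAJ segments. TRAJ22 averaged 15.8% of TRAV6 UMIs against 4.60% of other TRAV UMIs. For TRAJ23 these averages were 12.004% and 5.80%, for TRAJ15 7.37% and 5.23%, and for TRAJ31 4.35% and 9.53%. TRAJ22, TRAJ23 and TRAJ15 together made up 25.2% to 41.1% of TRAV6 UMIs. The mean TRAJ number, which falls from the 5′ to the 3′ end of the J cluster, was 23.2 in TRAV6 and 23.6 in the other TRAV, a difference of −0.417 (lower in 8 of 12 libraries, exact sign-flip p = 0.239).

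**Figure D3:**
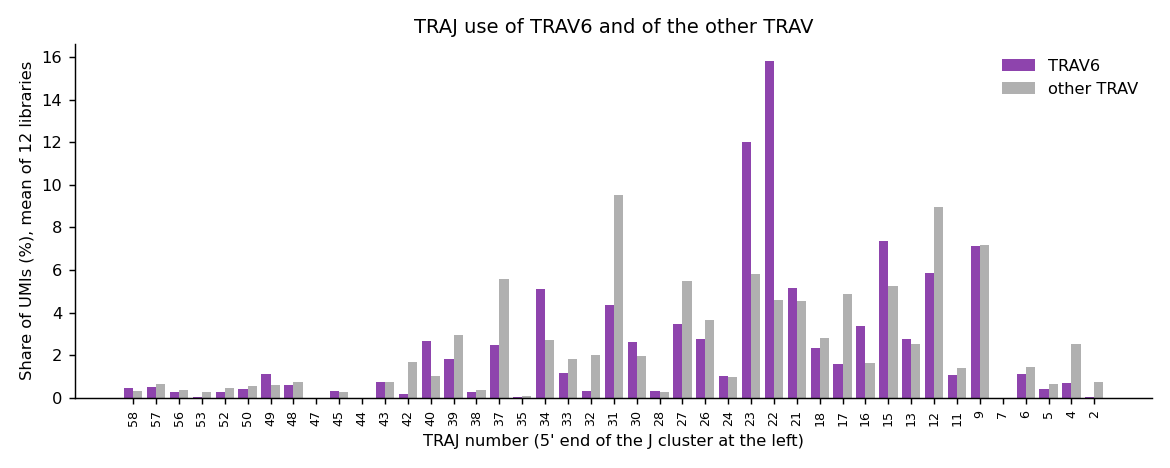
Mean share (%) of each TRAJ segment among TRAV6 UMIs and among the UMIs of all other TRAV over the 12 libraries. TRAJ22 stands out at 15.8% against 4.60%, and TRAJ31 is lower in TRAV6, at 4.35% against 9.53%.

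The genotype difference that passed the test in the family was its use of TRAJ37. TRAJ37 made up 1.33%, 1.64%, 0.628% and 0.883% of TRAV6 UMIs in wt, 3.17%, 3.27%, 6.49% and 3.07% in Il2°, and 1.11%, 4.00%, 2.58% and 1.40% in Il15°. Every Il2° library lay above every wt library, while Il15° spanned both. The TRAV6-TRAJ37 pair rose in Il2° against wt by 1.97 ± 0.36 on the log2 scale (edgeR, adjusted p = 0.000759 over 304 pairs, with 421 UMIs in all). It was 1 of the 32 TRAV6 pairs tested that passed, against 2.3% of all pairs (1.32% higher and 0.987% lower in Il2°), and 6 TRAV6 pairs had an unadjusted p below 0.05, against 14.5%. The value in Il15° against wt was 1.08 (adjusted p = 0.414) and in Il15° against Il2° −0.85 (adjusted p = 0.259). The rise rested in part on 1 library and on 1 clonotype: without Il2° replicate 3 it was 1.64 (adjusted p = 0.0558), and without the clonotype TRAV6D-7 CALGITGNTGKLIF it was 1.51 (adjusted p = 0.0655). With each clonotype counted once, TRAJ37 made up 1.22% to 2.21% of TRAV6 clonotypes in wt and 1.80% to 3.15% in Il2°, which overlapped (means 1.53% and 2.63%, exact Mann-Whitney p = 0.0571). Among TRAJ37 UMIs of the family, TRAV6D-7 held 39.4% and TRAV6-2 27.1%.

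The other TRAV families differed in the opposite direction. Their TRAJ37 share was 6.39%, 6.06%, 7.69% and 6.20% in wt, 5.11%, 4.46%, 4.77% and 4.65% in Il2°, and 6.30%, 4.85%, 4.45% and 5.76% in Il15°. All Il2° values lay below all wt values (exact Mann-Whitney p = 0.0286). The log2 ratio of the TRAV6 share to the share in other TRAV, taken in each library with 0.1% added to both, was higher by 2.21 in Il2° than in wt (exact p = 0.0286). That test, like the leave-outs of single clonotypes, was chosen after the data were seen.

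TRAJ22 made up 13.7%, 17.4%, 20.03% and 20.3% of TRAV6 UMIs in wt, 10.9%, 8.06%, 9.15% and 13.2% in Il2°, and 19.97%, 16.0%, 20.95% and 20.4% in Il15°. By this measure the Il2° libraries lay below all libraries of the other genotypes, the gap to the lowest wt library being small. As a share of all in-frame UMIs the Il2° libraries overlapped both other genotypes. TRAV6-TRAJ22 then held 1.197% to 1.922% in wt, 0.726% to 1.412% in Il2° and 1.407% to 2.295% in Il15°. Against all pairs the edgeR log2 fold change of TRAV6-TRAJ22 was −0.64 ± 0.20 for Il2° against wt (adjusted p = 0.0757), 0.97 ± 0.23 for Il15° against Il2° (adjusted p = 0.0517) and 0.28 for Il15° against wt (adjusted p = 0.764), none past the threshold of 0.05. Both comparisons with Il2° passed under DESeq2, at adjusted p = 0.0481 and 0.00344, and with no filter on low counts, at adjusted p = 0.0449 and 0.00761. With each clonotype counted once, TRAJ22 made up 8.93% of TRAV6 clonotypes in wt, 6.81% in Il2° and 10.8% in Il15° on average, with an exact p of 0.114 for Il2° against wt and of 0.0286 for Il15° against Il2°. In the other TRAV, TRAJ22 ranged from 3.79% to 5.63% in wt, from 3.76% to 4.55% in Il2° and from 4.70% to 5.08% in Il15°. The log2 ratio of the share in TRAV6 to that in other TRAV was 0.57 lower in Il2° than in wt and 0.68 higher in Il15° than in Il2°, each with an exact p of 0.0286.

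In both segments that carried most TRAV6-TRAJ22 UMIs, TRAJ22 use was lower in Il2° than in wt. Within TRAV6-5, TRAJ22 was joined to 32.3%, 36.6%, 43.1% and 33.6% of UMIs in wt, 28.7%, 21.3%, 21.2% and 32.2% in Il2°, and 48.2%, 49.7%, 33.3% and 44.1% in Il15°. Within TRAV6D-5 it was joined to 49.5%, 60.5%, 54.5% and 60.2% in wt, 27.2%, 29.0%, 45.6% and 43.3% in Il2°, and 50.3%, 44.3%, 67.3% and 61.6% in Il15°. By this measure the Il2° and wt libraries overlapped in neither segment, in TRAV6-5 by a narrow gap (32.2% and 32.3%), and no test was made of these shares. As a share of all in-frame UMIs both overlapped. TRAV6-5 with TRAJ22 held 0.403% to 0.784% in wt and 0.295% to 0.557% in Il2°. For TRAV6D-5 these ranges were 0.613% to 1.19% and 0.301% to 0.713%. How many segment and TRAJ pairs of all TRAV did not overlap was not counted. TRAV6D-6, with 2.22% of the TRAV6-TRAJ22 UMIs, had the opposite order: TRAJ22 was joined to 0.209% to 1.30% of its UMIs in wt (mean 0.796%) and to 1.16% to 2.86% in Il2° (mean 1.90%). As a share of all in-frame UMIs the TRAV6D-6 values did not overlap, at 0.00403% to 0.0239% in wt and 0.0274% to 0.0706% in Il2°. They rest on 65 UMIs over the 12 libraries. Both edges of that gap lie among the shares that 3 UMIs make up in a library (0.0121% to 0.0411%), so the separation rests on few UMIs. Leaving out the pair of TRAJ22 clonotypes printed above brought the TRAV6-TRAJ22 value to −0.47 for Il2° against wt (adjusted p = 0.296) and to 0.69 for Il15° against Il2° (adjusted p = 0.129).

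**Figure D4:**
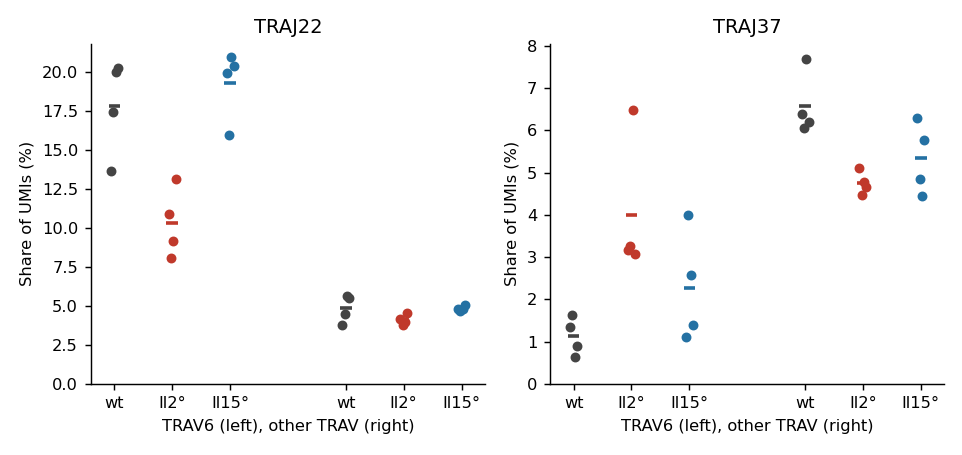
TRAJ22 (left panel) and TRAJ37 (right panel) as a share (%) of the UMIs of TRAV6 (left points in each panel) and of the other TRAV (right points), by genotype; points are libraries and horizontal lines are means. In Il2° mice TRAJ37 reaches 6.49% of TRAV6 UMIs while it is lower than in wt among the other TRAV, and TRAJ22 is lowest in Il2° within TRAV6.

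None of the other main partners passed in any comparison. For Il2° against wt the edgeR log2 fold change of the TRAV6 pair was 0.10 with TRAJ23 (95% interval −0.27 to 0.46), −0.21 with TRAJ15 (−0.66 to 0.24), 0.11 with TRAJ9 (−0.32 to 0.53) and 0.41 with TRAJ12 (−0.08 to 0.90). For Il15° against wt the value with TRAJ12 was 0.54 (0.01 to 1.08, adjusted p = 0.721). No TRAV6 pair passed in Il15° against wt (30 tested) or Il15° against Il2° (32 tested), where 0% of all pairs passed. DESeq2 passed 0 and 1 (TRAJ22) there, and 2 and 7 TRAV6 pairs had an unadjusted p below 0.05, against 6.95% and 14.5% of all pairs. Over the 32 pairs tested for Il2° against wt the median log2 fold change was 0.26 against 0.09 over all pairs. Their shares did not overlap, all higher in Il2°, for 5 of the 32 against 7.89% of all pairs, while they did not overlap for 1 of 30 for Il15° against wt (5.96%) and for 6 of 32 for Il15° against Il2° (8.87%). The 5 were TRAJ37, TRAJ21, TRAJ26, TRAJ27 and TRAJ5, the last 4 named after their values were seen. TRAV6-TRAJ21, for example, held 0.415% to 0.498% of in-frame UMIs in wt and 0.545% to 0.845% in Il2°, a log2 fold change of 0.60 (adjusted p = 0.188).

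At the level of single clonotypes none passed edgeR's test in any comparison, among 48, 51 and 37 TRAV6 clonotypes tested and 452, 466 and 352 in all. At an unadjusted p below 0.05 there were 5, 2 and 3 TRAV6 clonotypes, against 10.4%, 4.08% and 9.38% of all clonotypes, and DESeq2 passed 1 TRAV6 clonotype in each comparison. For Il15° against wt that clonotype, TRAV6D-7 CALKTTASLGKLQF, met the count filter only through Il15°. Over all clonotypes edgeR passed 0% in each comparison. The most abundant was TRAV6D-5 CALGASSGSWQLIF with TRAJ22, made by 6 nucleotide sequences. Its share of in-frame UMIs was 0.302%, 0.411%, 0.519% and 0.557% in wt, 0.102%, 0.136%, 0.282% and 0.411% in Il2°, and 0.3997%, 0.283%, 0.445% and 0.584% in Il15°. Il2° spread the widest and overlapped wt, with a log2 fold change of −0.97 ± 0.41 (adjusted p = 0.435).

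The related TRAV6-5 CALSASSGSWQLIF with TRAJ22 held 0.161%, 0.218%, 0.233% and 0.257% in wt, 0.149%, 0.0624%, 0.0756% and 0.192% in Il2°, and 0.533%, 0.245%, 0.600% and 0.449% in Il15°. Each Il15° library lay above each Il2° library, which held for 1 of the 37 TRAV6 clonotypes tested in that comparison and 9.09% of all. The difference was 2.05 ± 0.45 on the log2 scale (edgeR, adjusted p = 0.0518), and 1.04 ± 0.40 for Il15° against wt (adjusted p = 0.966). It passed the threshold with DESeq2 (adjusted p = 0.0102), with the D and N copies merged (adjusted p = 0.0250), with all 12 libraries in 1 fit (adjusted p = 0.0388) and without Il15° replicate 2 (adjusted p = 0.0285). The TRAJ22 clonotype TRAV6D-5 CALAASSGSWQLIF, ranged from 0.0743% to 0.210% in wt and from 0.0113% to 0.0863% in Il2° (−1.58 ± 0.72, adjusted p = 0.455).

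TRAV6D-7 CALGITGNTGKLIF with TRAJ37, whose joints are shown above, had 3, 7, 0 and 8 UMIs in wt, 20, 13, 42 and 14 in Il2°, and 1, 4, 17 and 7 in Il15°. All Il2° libraries held a larger share than any wt library, at 0.0738% to 0.289% of in-frame UMIs against at most 0.0479%. The log2 fold change was 2.93 ± 0.79 (edgeR, adjusted p = 0.184, DESeq2 adjusted p = 0.00811). Shares in Il2° and wt did not overlap for 2 of the 48 TRAV6 clonotypes tested, against 8.19% of all. The other one was TRAV6D-6 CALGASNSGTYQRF with TRAJ13, named after its values were seen, which was lower in Il2°, at 0.00785% to 0.0397%, than in wt, at 0.0437% to 0.182% (−1.71 ± 0.80, adjusted p = 0.473). TRAV6D-7 also gave clonotypes with TRAJ15: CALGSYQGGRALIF ranged from 0.0843% to 0.210% in wt, 0.0340% to 0.233% in Il2° and 0.122% to 0.330% in Il15° (Il15° against Il2° 1.51, adjusted p = 0.372). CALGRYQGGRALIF, which has arginine in place of that serine, ranged from 0.149% to 0.302% in wt, 0.0738% to 0.192% in Il2° and 0.0870% to 0.151% in Il15° (Il15° against wt −0.92, adjusted p = 0.982). A form with threonine there, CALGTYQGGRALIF, named after its values were seen, was in all wt and Il2° libraries (33 and 31 UMIs) and had 0 of 58501 in-frame UMIs over the Il15° libraries, which allows up to 0.00513%. Its pooled wt share was 8.06-fold that floor of 3 UMIs over the Il15° libraries. This ratio does not cover the spread between mice, and the clonotype held too few UMIs to be tested in Il15° against wt. The serine form came from 12 nucleotide sequences and the arginine form from 15.

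TRAV6D-7 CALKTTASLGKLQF with TRAJ24 was absent from the wt tables. Shares in Il15° and wt did not overlap for 2 of the 51 TRAV6 clonotypes tested, against 5.58% of all. This clonotype reached the 5 UMIs in 4 libraries that the test needs only through Il15°, so its non-overlap followed from the filter. It had 0 of 79831 in-frame UMIs over the wt libraries, which allows up to 0.00376%, and 7, 13, 6 and 5 UMIs in Il15°, or 31 of 58501 (0.0530%). Its pooled Il15° share was 14.1-fold that floor of 3 UMIs over the wt libraries, a ratio that does not cover the spread between mice. The edgeR adjusted p was 0.178 and the DESeq2 adjusted p 0.00406, for a clonotype that the filter took through Il15° alone. In Il2° it had 10 UMIs, 9 of them in replicate 3. A single nucleotide sequence encoded it in all libraries, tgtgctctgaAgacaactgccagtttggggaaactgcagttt, with 1 base outside the germline ends of all TRAV6 segments and of TRAJ24. The a before that base matches the end of TRAV6-5, not that of TRAV6D-7.

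The other clonotypes among the 3 largest of a genotype overlapped between genotypes. TRAV6D-6 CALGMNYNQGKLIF with TRAJ23 held 0.266% to 0.305% in wt, 0.278% to 0.521% in Il2° and 0.275% to 0.452% in Il15°. TRAV6D-6 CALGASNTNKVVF with TRAJ34, encoded by 11 nucleotide sequences, held 0.246% to 0.486%, 0.289% to 0.357% and 0.251% to 0.342%. TRAV6D-5 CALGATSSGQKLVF with TRAJ16 varied most, from 0.00967% (1 UMI) to 0.336% within Il15° alone. The 10 largest clonotypes of a library held, of its TRAV6 UMIs, 25.4 ± 3.36% (wt), 21.1 ± 3.40% (Il2°) and 26.7 ± 3.20% (Il15°) (SD, n = 4).

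TRAV6 clonotypes had longer CDR3 loops than the rest of the repertoire. The mean length weighted by UMIs was 13.6 ± 0.0713 residues in TRAV6 and 13.03 ± 0.0214 in the other TRAV (SD over 12 libraries), a difference of 0.551 residues, positive in 12 of 12 libraries (exact sign-flip p = 0.000488, the smallest that 12 libraries can give). Within the same TRAJ segment the difference was 0.557 residues, again positive in 12 of 12 (exact sign-flip p = 0.000488). Loops of 14 residues made up 48.1 ± 3.62% of TRAV6 UMIs and 28.8 ± 0.897% of the others. With TRAJ22, 87.1% of TRAV6 UMIs and 46.7% of other UMIs had 14 residues, and with TRAJ15 87.1% and 39.96%. The order was the other way with TRAJ9 (29.1% and 50.6%) and with TRAJ21 (6.13% and 27.1%). Mean length was still greater in TRAV6 with TRAJ9 (13.40 and 13.15 residues) and TRAJ21 (12.92 and 12.76), and about equal with TRAJ12 (13.22 and 13.23). Mean TRAV6 length by genotype stood at 13.6 ± 0.0594 (wt), 13.5 ± 0.0835 (Il2°) and 13.6 ± 0.0115 residues (Il15°), and only Il15° against Il2° did not overlap (difference 0.110, exact Mann-Whitney p = 0.0286, adjusted 0.117). The deposited positions of V end and J start gave 1.957 inserted bases in TRAV6 and 2.07 in the others, a difference of −0.110 (lower in 11 of 12 libraries, exact sign-flip p = 0.0156). That difference was −0.0717 (p = 0.0796) without clonotypes of 1 UMI and −0.211 (p = 0.00244) by exact match to germline ends.

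**Figure D5:**
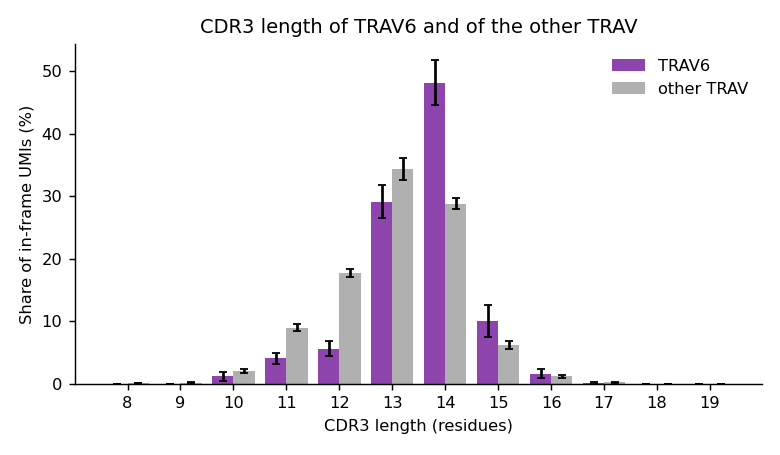
Share of UMIs (%) by CDR3 length in residues for TRAV6 and for the other TRAV; values are means over the 12 libraries and error bars are SD. At 14 residues TRAV6 stands at 48.1% and the other TRAV at 28.8%, while at 12 residues the order is reversed (5.64% and 17.7%).

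In the centre of the loop, with 3 residues left out at each end, 9 of 20 amino acids had non-overlapping shares in Il2° and wt TRAV6 UMIs (each exact Mann-Whitney p = 0.0286, adjusted 0.117), against 30% (6 of 20) in the other TRAV. Serine made up 12.1 ± 0.802% in Il2° and 15.1 ± 1.46% in wt, and tryptophan 1.68 ± 0.296% and 2.57 ± 0.365%. Both lie in the SSGSWQL stretch that TRAJ22 encodes. Alanine was also lower, and asparagine (13.3% against 11.7%), lysine, threonine, valine, glutamate and isoleucine were higher. Glutamate, isoleucine and threonine differed the other way in the remaining TRAV, glutamate for example at 2.35% in Il2° and 2.99% in wt against 1.10% and 0.832% in TRAV6. By the same count, 2 of 20 amino acids did not overlap without TRAJ22 clonotypes and 1 of 20 with each clonotype counted once, whether or not among the 9. For Il15° against Il2° 7 of 20 did not overlap (other TRAV 15%), serine (16.0% against 12.1%) and tryptophan being higher in Il15°. For Il15° against wt 0 did, against 5% in the other TRAV.

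A clonotype was called public in a genotype when all 4 of its libraries held it. In wt 53 of 978 TRAV6 clonotypes were public (5.42%, against 5.77% of all in-frame clonotypes), in Il2° 52 of 1087 (4.78%, against 4.10%) and in Il15° 41 of 689 (5.95%, against 5.59%). TRAV6 thus made up 8.58% of the public clonotypes of wt, 12.3% of those of Il2° and 10.2% of those of Il15°, which was not tested. Public TRAV6 clonotypes carried 44.4 ± 6.31%, 36.1 ± 5.43% and 36.4 ± 3.99% of the TRAV6 UMIs. Of the 88 that were public in any genotype, 17 were public in all 3 and therefore present in all 12 libraries, 20 in wt only, 14 in Il2° only and 13 in Il15° only. The 17 shared clonotypes held 25.0% of TRAV6 UMIs, against 29.0% for the 174 such clonotypes of the whole repertoire. They included the TRAJ22 clonotypes described above. At the other extreme 1082 TRAV6 clonotypes (52.4%) were seen in 1 library, against 52.6% of all. These counts depended on depth, and requiring 2 UMIs in a library left 27 public TRAV6 clonotypes in Il2° and 18 in Il15°.

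Other TRAV families with D or N copies gave the setting. Of 12 such families tested, TRAV4, the largest family, fell in Il2° against wt by 0.61 on the log2 scale (edgeR, adjusted p = 0.000307) and was 0.46 higher in Il15° than in Il2° (adjusted p = 0.0290), and 0 families passed in Il15° against wt. Shares add up to the whole, so a lower TRAV4 share leaves higher shares elsewhere. The family whose share followed TRAV6 most closely over the 12 libraries was TRAV10 (Spearman rho 0.608), then TRAV14 (0.245) and TRAV3 (0.210), as a description over shares of the same libraries.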

How the data were processed

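TCRα libraries were made from RNA of sorted thymic Treg with a UMI on each cDNA. Per the study's methods, the authors filtered reads by quality and built consensus sequences of UMIs seen in at least 2 reads with pRESTO, assigned V and J segments and CDR3 with MiXCR, and deposited VDJtools tables with 1 mouse per file. Versions are not given in the sources used here. The submitters' processing notes name mm10. The deposited counts are UMI counts per CDR3 nucleotide sequence, and a fraction column, which the authors computed from each count and its table's total, was not used. Rows with a stop codon or a frame shift (1.67% to 5.36% of TRAV6 UMIs) were left out.

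UMI counts were summed by TRAV family, segment, family by TRAJ pair and clonotype, and each level was fitted over all its features with edgeR 4.0.16 (quasi-likelihood test, TMM, R 4.3.3) in the 8 libraries of a comparison. Families and segments needed 10 UMIs in 4 libraries, pairs and clonotypes 5. Standard errors came from the log2 fold change and its test statistic, and 95% intervals from them by the normal distribution. P values were adjusted by Benjamini and Hochberg, with a threshold of 0.05. Library shares were compared by exact 2-sided Mann-Whitney tests, and TRAV6 with the other TRAV by exact sign-flip tests (scipy 1.17.1). DESeq2 1.42.0, other scalings and filters, merged copies, nucleotide clonotypes and left-out libraries were alternatives. Scripts were tested on simulated data. Each library is 1 mouse, so p values measure the spread between these mice. Replicate numbers are shared between genotypes but come from different mice. Germline ends came from GENCODE M21 (GRCm38). The TRAV6 family, its lists and the tests were chosen with earlier results of these data known. Text names segments of at least 0.1%, the 3 largest TRAV6 clonotypes per genotype, the 3 with the smallest p per comparison, and TRAJ22, TRAJ23, TRAJ15, TRAJ9, TRAJ12 and any TRAJ whose pair passed. Germline matching of joints, leaving out named clonotypes or TRAJ22, TRAJ ratios and length within a TRAJ were chosen after seeing the data.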

Additional observations from a re-analysis of the deposited data

Results flagged for a closer look

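Within a genotype, 11 of 171 groups of 4 libraries (6.43%) held a library whose distance to the nearest other exceeded Dixon's 95% limit as a part of the group's range, and chance gives about 1 in 20. The TRAJ37 share of TRAV6 UMIs was 6.49% in Il2° replicate 3 against 3.07% to 3.27% in the other Il2° libraries, and TRAV6D-7 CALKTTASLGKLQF was at 0.0618% of in-frame UMIs there against 0% to 0.00567%. TRAV6D-7 as a segment was at 0.668% in wt replicate 3 (others 1.18% to 1.27%), and TRAV6D-6 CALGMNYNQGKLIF at 0.521% in Il2° replicate 4 (others 0.278% to 0.314%). TRAJ23 was at 10.7% of TRAV6 UMIs in Il15° replicate 2 (others 12.3% to 12.4%). Among central CDR3 residues of TRAV6, lysine was at 6.19% (others 7.34% to 7.54%) and arginine at 6.32% (others 4.88% to 5.04%) in Il15° replicate 3, tryptophan at 2.42% (others 2.85% to 2.93%) in Il15° replicate 2, methionine at 1.78% (others 2.08% to 2.12%) in Il2° replicate 3, proline at 1.1% (others 1.56% to 1.62%) in Il2° replicate 4, and cysteine at 0.104% (others 0% to 0.0168%) in Il2° replicate 1.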

How the results depend on the processing

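The longer CDR3 of TRAV6 (0.545 to 0.564 residues with single libraries left out) kept its direction and its side of the threshold under all alternatives run. The number of TRAV6-TRAJ pairs past the threshold for Il2° against wt was 2 in place of 1 with DESeq2, with no filter on low counts and with out-of-frame rows included, 0 without the TRAV6D-7 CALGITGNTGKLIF clonotype, and 0 to 2 with single libraries left out (TRAJ37 lost without Il2° replicate 3, 2 without Il2° replicate 4 or wt replicate 1). For Il15° against Il2° it was 1 in place of 0 under DESeq2, no filter, out-of-frame rows and all 12 libraries in 1 fit, and 0 to 1 with single libraries left out (1 without Il15° replicate 2). TRAV6 clonotypes past the threshold were 1 in place of 0 with DESeq2 in each comparison and, for Il15° against Il2°, with nucleotide clonotypes, merged copies, all 12 libraries, or Il15° replicate 2 left out (0 to 1). TRAV6 segments were 0 to 1 there (1 without Il15° replicate 2 or Il2° replicate 1). Central residues without overlap numbered 1, 2 and 3 with each clonotype counted once (Il2° against wt, Il15° against wt, Il15° against Il2°), and 2 and 3 without TRAJ22 in the comparisons with Il2°. Public clonotypes with 2 UMIs required were 27 in Il2° and 18 in Il15°, with 25.95 in Il15° at equal depth; with 1 library of the genotype left out, which relaxes the rule to 3 libraries, they were 57 to 79 and 43 to 70.

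The TRAV6 against other TRAV difference in TRAJ number was −0.429 (exact sign-flip p = 0.0293) with each clonotype counted once, and that in inserted bases −0.0717 without clonotypes of 1 UMI. Values near 0 changed sign. The family log2 fold change for Il2° against wt was 0.15 without TMM. The family share difference of Il15° against Il2° was −0.0781 percentage points with out-of-frame rows and −0.388 to 0.432 with single libraries left out, and the fitted family value 0.10 to 0.38. The mean TRAJ number of TRAV6 differed by −0.0621 (Il2° against wt, each clonotype once) and by −0.670 to 0.0111 (Il15° against wt, libraries left out). TRAV6D-7 for Il15° against Il2° was 0.0188 without a filter and 0.0251 with out-of-frame rows, TRAV6-5 for Il2° against wt 0.0242 without TMM, TRAV6-TRAJ15 for Il15° against wt 0.00622 with DESeq2, and TRAV6-TRAJ9 for Il15° against Il2° 0.0071 without a filter. With single libraries left out TRAV6D-7 ran from −0.0482 to 0.25, −0.025 to 0.31 and −0.15 to 0.14 in the 3 comparisons, TRAV6-TRAJ9 from −0.12 to 0.25 (Il15° against wt) and −0.28 to 0.17 (Il15° against Il2°), TRAV6-TRAJ15 from −0.15 to 0.15 (Il15° against wt), and TRAV6-TRAJ23 and TRAV6-TRAJ12 from −0.0757 to 0.18 and −0.0576 to 0.37 (Il15° against Il2°). The causes were not tested.

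Replicate numbers did not pair the mice: deviations of same-numbered libraries correlated at −0.203 to 0.263 over 12 pairs, 4 of them over 0.1, and in 6 of 24 instances of a library in a comparison it correlated best with its own number. With the replicate block, 1 TRAV6-TRAJ pair passed for Il15° against Il2° in place of 0 (TRAJ22, adjusted p = 0.0203), and TRAV6-TRAJ15 and TRAV6-TRAJ9 for Il15° against wt were 0.00377 and −0.0384. Depth limits single clonotypes most: a share of 0 in a library allows up to 0.0121% to 0.0411%, and 4 mice per genotype cannot give an exact p below 0.0286.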

Other observations

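Rows flagged with a frame shift or a stop codon hold 626 TRAV6 UMIs of 200 rearrangements. In these rows TRAV6 made up 7.19 ± 1.93% of UMIs (SD over 12 libraries), against 9.74 ± 0.857% of in-frame UMIs, and the in-frame share was higher in 11 of 12 libraries (difference 2.55 percentage points, exact sign-flip p = 0.00146). TRAJ22 took 1.76% of the out-of-frame TRAV6 UMIs (95% Wilson interval 0.984% to 3.12%) against 16.0% in frame. For TRAJ23 these shares were 3.67% (2.46% to 5.45%) and 12.1%, and for TRAJ15 0.639% (0.249% to 1.63%) and 7.55%. TRAJ37 took 0.958% (0.440% to 2.08%) out of frame and 2.29% in frame. The out-of-frame counts come from few rearrangements, 5 for TRAJ22 and 2 for TRAJ15, so the intervals, which cover counting of UMIs only, are too narrow for a statement on rearrangements. In frame, TRAV6 had 0 UMIs with TRAJ7, 0 with TRAJ44 and 1 with TRAJ47, so the flag may take rows of these TRAJ whatever their joint. Flagged rows therefore need not all be unable to give a receptor, and the part that can was not tested.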
